A study of Homo sapiens with 12 samples.

Results

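The S100 genes encode small calcium-binding proteins, and 10 of them were followed here in human kidney tubule cells: S100A2, S100A4, S100A6, S100A8, S100A9, S100A10, S100A11, S100A13, S100A14 and S100A16. They were chosen by name, as the rows of the deposited table whose Ensembl identifiers carry these symbols, and make up 10 of the 20286 genes in the table. RNA sequencing was done on 12 libraries of HK-2 cells, an immortalised line from human proximal tubule epithelium. The labels give the genotype of every group as wild type (WT) and a growth medium with 10% fetal bovine serum. The control group received phosphate-buffered saline (PBS), and the other groups received S100A8, S100A9 or S100A8/S100A9 as recombinant protein, each for 48 h and with 3 libraries per group. The dose is printed in the labels as 5 mg/mL, and its unit was not checked against another source. The genes S100A8 and S100A9 encode the same proteins that were added, so the design asks which S100 genes the cells themselves express and whether adding these proteins shifts them. The labels do not say that replicates were separate cultures, so the p-values describe the spread among these libraries, and that spread may be technical.

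S100 proteins carry a pair of EF-hand loops that bind calcium, and most work as dimers that expose a binding face for other proteins when calcium rises inside the cell. Partners include annexins, which join membranes to the cortical cytoskeleton, and non-muscle myosin. Some members are also released. S100A8 and S100A9 form the heterodimer calprotectin, which is abundant in neutrophils and monocytes and acts on receptors such as TLR4 and the receptor for advanced glycation end products (encoded by AGER). Most human S100 genes lie together on the long arm of chromosome 1, in the epidermal differentiation complex region.

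The libraries held between 15882193 and 20748334 counts and between 15483 and 15653 genes above 0. All 5 epithelial markers (KRT8, KRT18, KRT19, EPCAM and CDH1) had a mean of at least 1 CPM (counts scaled to the TMM-normalised library total). Of 9 markers of mature proximal tubule only GGT1 did, and the transporters SLC22A6 and SLC22A8 were at 0 in all 12 libraries. The summed level of these 9 was 30.9 to 33.5 CPM in control and 33.2 to 38.3 CPM after S100A9. That of the 5 epithelial markers was 1106 to 1134 CPM in control and 1048 to 1091 CPM after S100A9. The part of either in the S100 values was not tested. The same count was 0 of 8 for myeloid cells (summed level 0.154 to 1.13 CPM, with FCGR3B and S100A12 at 0) and 1 of 4 for endothelium (VWF). It was 2 of 4 for fibroblasts (COL1A1 and PDGFRB, with COL1A2 at 0) and 1 of 4 for keratinocytes (KRT10, with KRT5 and KRT1 at 0). Calls were possible after S100A9, as SOD2 and LCN2 show. Both were named because earlier results of these data had them called there, and they do not speak of the other comparisons. SOD2, the mitochondrial superoxide dismutase, was at 288 ± 5.26 CPM (SD, n = 3) in control and 512 ± 22.8 after S100A9. Its log2 difference was 0.83, with an adjusted p of 2.1e-13 in edgeR's quasi-likelihood test. LCN2, which encodes the iron-carrier binding protein lipocalin 2, went from 6.25 ± 2.32 to 54.9 ± 18.9 CPM (log2 difference 3.15, adjusted p = 0.0091 in edgeR).

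HK-2 cells expressed 8 of the 10 S100 genes, with a wide range of levels, and showed no count of S100A8 or S100A9. Levels between genes were compared in FPKM, the authors' value scaled for transcript length and sequencing depth. S100A6, which encodes calcyclin, a partner of annexins and of the ubiquitin ligase adaptor CACYBP, was highest with a mean of 465 FPKM over the 12 libraries, above 99.5% of all genes in the table. S100A11, encoding a partner of annexin A1, followed with 385 FPKM, and S100A10, which joins annexin A2 in a heterotetramer at the plasma membrane, with 221 FPKM. S100A16 reached 124 FPKM and S100A13, known for its part in the export of FGF1 and IL-1 alpha without a signal peptide, 68.1 FPKM. S100A2, a gene typical of basal epithelial cells, stood at 17.6 FPKM. S100A4, also known as metastasin and as fibroblast-specific protein, which binds non-muscle myosin heavy chain, was low at 2.56 FPKM, above 47.2% of all genes. S100A14 was lowest of the 8 at 0.676 FPKM, above 39.3% of all genes.

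The order was the same in every library: each of the 7 pairs of neighbours had the same gene higher in 12 of 12 libraries, and the ranges over libraries did not overlap in any pair. The smallest step was between S100A6 and S100A11 (1.21-fold), and the largest between S100A2 and S100A4 (7.11-fold). The sign-flip permutation test gave p = 0.000488 for each of the 7 steps, also after Benjamini-Hochberg adjustment over them, which is the smallest value these flips can give. Libraries of different groups entered together, so the test speaks of these 12 libraries. The order itself was taken from the mean FPKM of the same 12 libraries. The direction of each step was thus set by the values tested, and the p-values are no separate support for it. The step between the first and second gene rested on the length used. The deposited counts and FPKM together imply a length of 437 bases for S100A6 and 563 for S100A11, whereas GENCODE exons span 971 and 680 bases. On counts per kilobase of those exons, S100A11 (5660) came before S100A6 (3713), and all other genes kept their place.

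In the control group S100A6 stood at 453 ± 16.6 FPKM (SD, n = 3), S100A11 at 380 ± 20.7, S100A10 at 217 ± 4.68 and S100A16 at 126 ± 4.68. S100A13 stood at 64.4 ± 2.17 FPKM in control, S100A2 at 17.7 ± 1.55, S100A4 at 2.17 ± 0.730 and S100A14 at 0.547 ± 0.266. The 10 genes summed to 1261 ± 34.6 FPKM in control, 1283 ± 48.1 after S100A8, 1306 ± 15.6 after S100A9 and 1285 ± 36.9 after S100A8/S100A9. That sum was 0.274% to 0.291% of all FPKM in a library. S100A6 and S100A11 alone supplied 65.0% to 67.6% of it, and together with S100A10 and S100A16 92.6% to 93.4%, so the S100 transcripts of these cells were mostly those of 4 genes.

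**Figure D1:**
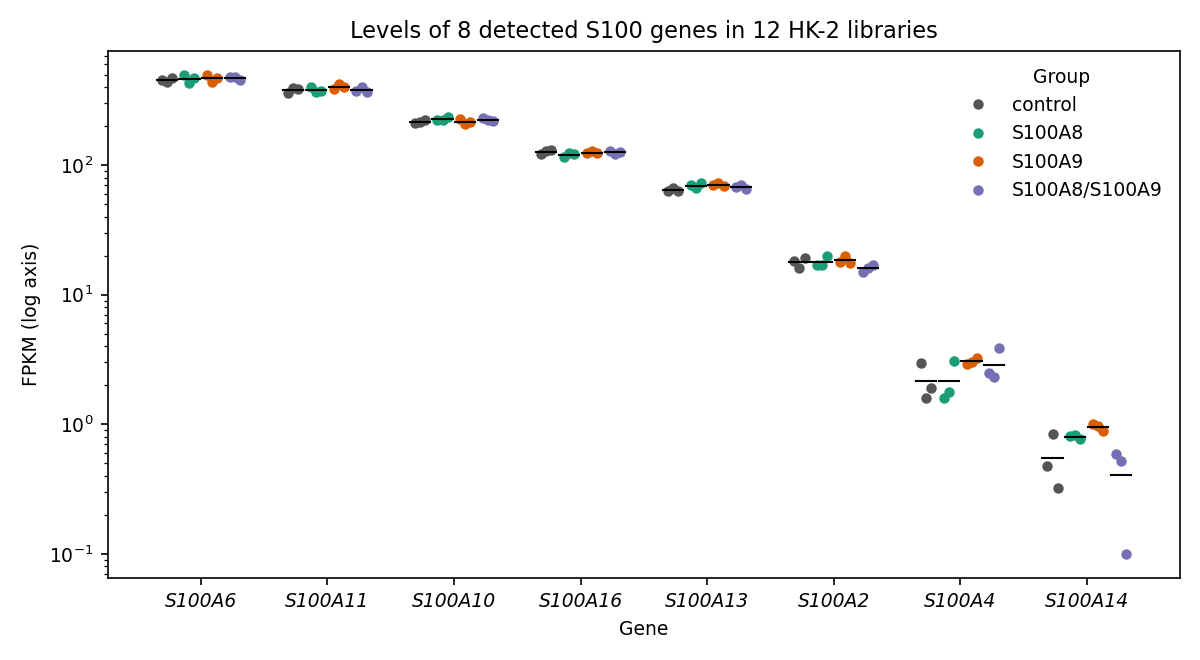
Levels of the 8 detected S100 genes in FPKM (log axis), with 1 point per library, coloured by group, and a line at the mean of the 3 libraries of a group. The genes keep their order from S100A6 (mean 465 FPKM) to S100A14 (0.676 FPKM), and the points spread widely only for S100A4 and S100A14.

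The genes for the added proteins were silent at this depth. S100A8 and S100A9 each had 0 counts in all 12 libraries, control and treated, which together held 212905011 counts. A count of 0 allows up to 3 counts, which is 0.189 CPM in the smallest library, 0.145 CPM in the largest and 0.0141 CPM over the 12 libraries pooled. Pooled within a group, the limit was 0.0593 CPM in control, 0.0592 after S100A8, 0.0546 after S100A9 and 0.0529 after S100A8/S100A9. These limits cover counting error only. No transcript of S100A8 or S100A9 was therefore detected after 48 h with either protein, and since both groups of every comparison were at 0 no fold was computed. The result is a measurement of RNA and says nothing of the added protein, and 2710 genes of the table (13.4%) were likewise at 0 in every library.

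On chromosome 1 the silent S100 genes lay next to each other. S100Z, also at 0 in all libraries, lies apart from them on chromosome 5. In GENCODE release 29 on GRCh38, 17 of the 21 S100 family genes lie on chromosome 1 between 151982915 and 153632039, and all 10 genes described here are among them. S100A10 (chr1:151982915-151994390, minus strand) and S100A11 (chr1:152032506-152047907, minus strand) lie at one end and were both highly expressed. The next stretch runs over 103 kb from S100A9 (chr1:153357854-153361027, plus strand) past S100A12, S100A8 (chr1:153390032-153391188, minus strand), S100A7A and S100A7L2 to S100A7. Of its 6 genes, 5 were at 0 in all libraries, and S100A7, encoding psoriasin, had 1 count in 1 library. After a gap of 73.9 kb follows a stretch of 96.8 kb from S100A6 (chr1:153534599-153536244, minus strand) to S100A13 (chr1:153618787-153631360, minus strand), and all 8 genes in it had counts in all 12 libraries. Within that stretch levels still differed widely: S100A14 (chr1:153614255-153616986) lies between S100A16 (chr1:153606886-153613145) and S100A13, and its 0.676 FPKM compare with 124 and 68.1 FPKM of these neighbours. It also holds S100A2 (chr1:153561108-153567890) and S100A4 (chr1:153543613-153550136), both on the minus strand, and S100A3 and S100A5.

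**Figure D2:**
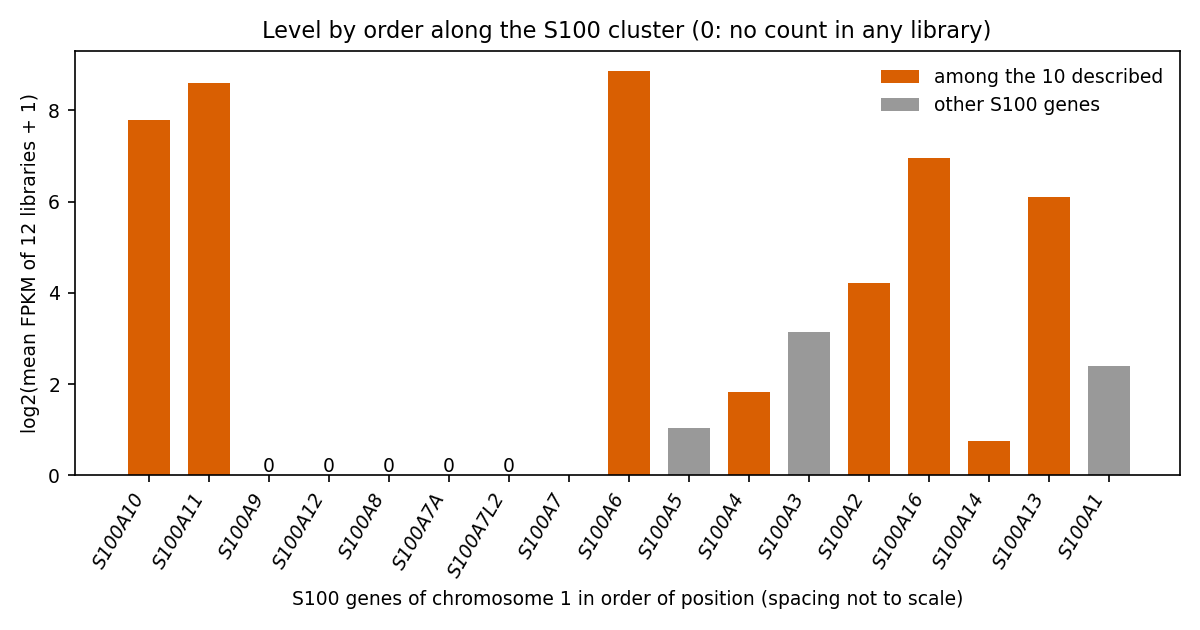
Mean level of the 17 S100 genes of chromosome 1 as log2(FPKM + 1) over 12 libraries, ordered by position with spacing not to scale, and with 0 written where no library had a count. The genes from S100A9 to S100A7L2 are at 0 and S100A7 has 1 count, between expressed genes on both sides.

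S100A13 overlaps S100A1 on the other strand and S100A4 overlaps S100A3 on the same strand, and whether the counting used strand is not given in the sources used here, so reads could be split between these pairs. Among the transcripts of the 10 genes, 0 of 45 gene pairs shared an exact run of at least 50 bases. S100A13 shared a run of 319 bases with AL162258.1, a gene absent from the deposited table, and its part in the S100A13 counts was not tested.

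The 250 bases before the start site are shown for the pair of highest genes and for the 2 silent genes, to set the letters before genes at opposite ends of the range of levels side by side. They come from RefSeq's promoter table on GRCh38.p14, which held 16 start sites for the 10 genes, and read 5′ to 3′ on the strand of the gene, with capitals marking the letters TATAAA. S100A6 is the window chr1:153535992-153536241 (minus strand), S100A11 is chr1:152037005-152037254 (minus strand), S100A9 is chr1:153357604-153357853 (plus strand) and S100A8 is chr1:153391074-153391323 (minus strand), the window of the 3 annotated for S100A8 that holds the motif nearest its start.
S100A6: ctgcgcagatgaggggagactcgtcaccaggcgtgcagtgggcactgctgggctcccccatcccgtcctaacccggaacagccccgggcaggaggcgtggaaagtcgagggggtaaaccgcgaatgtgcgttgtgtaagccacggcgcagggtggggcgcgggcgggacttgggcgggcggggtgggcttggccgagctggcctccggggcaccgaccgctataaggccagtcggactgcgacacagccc
S100A11: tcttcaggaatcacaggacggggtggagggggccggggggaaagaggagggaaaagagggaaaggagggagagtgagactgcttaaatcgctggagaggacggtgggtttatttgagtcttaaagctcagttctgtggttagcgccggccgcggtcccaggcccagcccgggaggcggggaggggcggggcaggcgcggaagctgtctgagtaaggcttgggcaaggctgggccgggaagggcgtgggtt
S100A9: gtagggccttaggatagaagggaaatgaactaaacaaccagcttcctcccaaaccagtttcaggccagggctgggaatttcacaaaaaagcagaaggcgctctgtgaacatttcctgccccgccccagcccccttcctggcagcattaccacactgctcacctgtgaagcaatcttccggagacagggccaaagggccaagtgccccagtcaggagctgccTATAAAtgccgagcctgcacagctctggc
S100A8: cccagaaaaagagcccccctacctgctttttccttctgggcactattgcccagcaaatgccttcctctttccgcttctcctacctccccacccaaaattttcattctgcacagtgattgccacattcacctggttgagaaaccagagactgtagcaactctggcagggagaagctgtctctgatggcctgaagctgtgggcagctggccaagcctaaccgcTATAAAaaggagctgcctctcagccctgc

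The windows of S100A6 and S100A11 held 24 and 15 CG dinucleotides, above the median of 11 over 35114 promoter windows of the same length, and that of S100A10 held 24. The windows of S100A9 and S100A8 held 4 and 2, near the lower quartile of 3. Low numbers were not limited to silent genes: the windows of S100A16, at 124 FPKM, held 1 and 6. The letters TATAAA, searched on both strands, began at position -29 from the start site in S100A9 and in the S100A8 window shown, at -31 in S100A4 and at -29 in 1 of 3 windows of S100A13, and were not matched in the windows of S100A6, S100A10 and S100A11. The S100A8 window shown was chosen for this match. Another S100A8 window held TATAAA at -126, and the remaining one had no match. TATAAA occurred in 10.7% of all windows. Only these exact letters were searched. The S100A6 window shown holds tataag near its end, which differs in 1 letter and was not counted. The GC box GGGCGG was found at 3 places in the S100A6 window and at 1 place in those of S100A9, S100A10 and S100A11. It was also found at 1 place in 1 window each of S100A16 and S100A13. It was present in 42.6% of all windows, and the searches did not count overlaps with other motifs. TGANTCA, the letters of an AP-1 site and likewise searched on both strands, matched 1 window of S100A2 and 6.57% of all windows. These matches describe letters and not bound sites.

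No S100 gene passed the test with any of the added proteins. The test compared groups with edgeR's quasi-likelihood model over all 13512 genes tested, and an adjusted p under 0.05 counted as a call. The 3 treated groups share the same control libraries. Of the 10 genes, 8 passed the filter on low counts, and S100A8 and S100A9, at 0, were not tested. After S100A8, 0 of the 8 were called in edgeR, against 0.0074% of all genes tested, and 0 had an unadjusted p under 0.05, against 3.53% of all genes. After S100A9, 0 of 8 were called in edgeR, against 0.148% of all genes, and 1 (S100A13) had an unadjusted p under 0.05, against 5.85%. After S100A8/S100A9, 0 of 8 were called in edgeR, against 0% of all genes, and 0 had an unadjusted p under 0.05, against 5.6%. DESeq2 and limma also called 0 of 8 in each of these comparisons and in those between treated groups. With so few calls among all genes, none among 8 does not set the S100 genes apart.

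The intervals show how large a change could have been missed. For the 4 genes above 100 FPKM, all 24 log2 differences between groups lay between -0.09 and 0.10, and their 95% intervals between -0.19 and 0.19. Adding S100A13 and S100A2, the 36 differences lay between -0.22 and 0.14 and the intervals between -0.43 and 0.28. Over the 8 genes the median log2 difference from control was 0.04 after S100A8, 0.09 after S100A9 and 0.03 after S100A8/S100A9, beside 0.00 for all genes in each case. The median absolute difference of the 8 was 0.07, 0.09 and 0.08, beside 0.05, 0.06 and 0.06 for all genes. Genes above 0 numbered 5, 7 and 6 of 8 in that order. With limma on log2(FPKM + 1) these were 5, 6 and 4, so the direction of the smallest differences depended on the scale. In bulk RNA, fewer cells expressing a gene and less RNA per cell cannot be told apart.

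**Figure D3:**
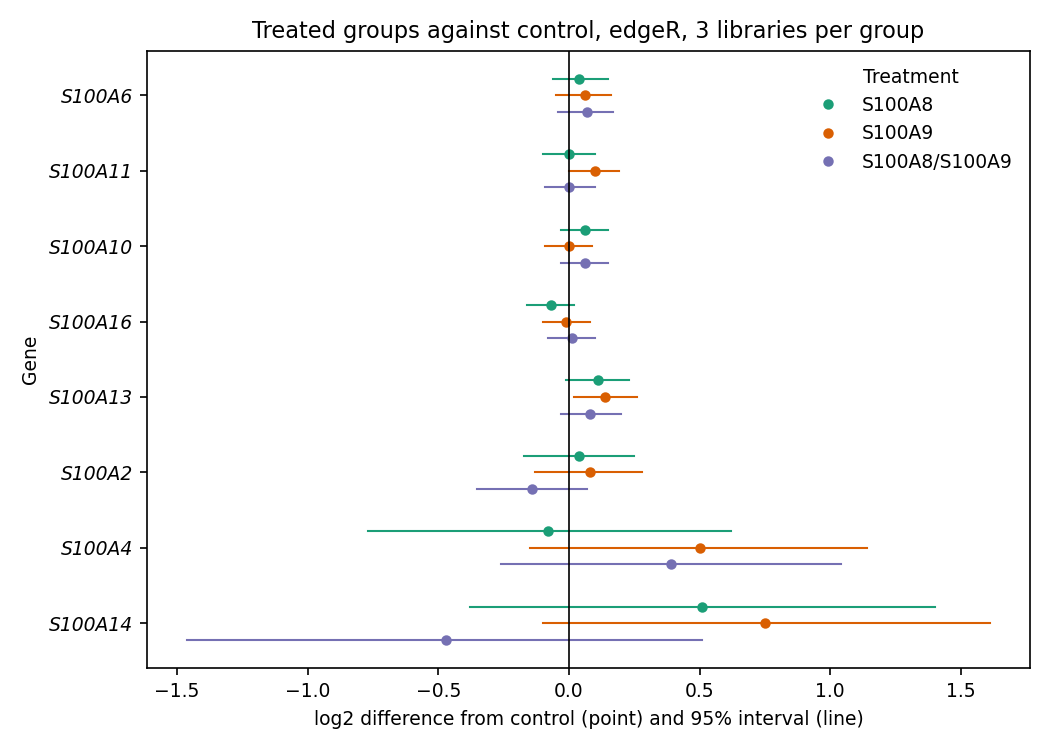
Log2 difference of each treated group from control for the 8 tested S100 genes (points) with its 95% interval (lines), 3 libraries per group. Intervals are narrow for the genes from S100A6 to S100A13 and wide for S100A4 and S100A14, and the S100A9 interval of S100A13 (0.02 to 0.26) lies above 0.

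Among the annexin partners, S100A10 was at 142, 144 and 148 CPM in the 3 control libraries and at 150, 148 and 157 CPM after S100A8. It was at 152, 140 and 143 CPM after S100A9 and at 157, 149 and 147 CPM after S100A8/S100A9. The groups overlapped throughout, and the log2 differences from control were 0.06 (95% interval -0.03 to 0.15), 0.00 (-0.09 to 0.09) and 0.06 (-0.03 to 0.15). ANXA2, which encodes its partner annexin A2, was among the more abundant transcripts, at a mean of 578 FPKM. The ratio of S100A10 to ANXA2 FPKM was 0.376 ± 0.0230 (SD, n = 3) in control, 0.391 ± 0.0140 after S100A8, 0.375 ± 0.0155 after S100A9 and 0.386 ± 0.00531 after S100A8/S100A9, and the libraries of all groups overlapped.

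S100A11 was at 200, 222 and 217 CPM in control and at 223, 207 and 210 CPM after S100A8. After S100A9 it was at 219, 241 and 224 CPM, and after S100A8/S100A9 at 210, 226 and 206 CPM. The S100A9 group had the highest mean, 228 ± 11.6 CPM against 213 ± 11.4 in control, but its lowest library lay below the highest control. The log2 difference after S100A9 was 0.10 ± 0.05 (SE), with a 95% interval from -0.00 to 0.19 and an adjusted p of 0.85 in edgeR. After S100A8 it was -0.00 and after S100A8/S100A9 0.00, with intervals of -0.10 to 0.10 and -0.09 to 0.10. The FPKM ratio of S100A11 to ANXA1, the gene of its partner annexin A1, was 5.24 ± 0.170 (SD, n = 3) in control and 5.83 ± 0.239 after S100A9, with 5.13 ± 0.567 and 5.21 ± 0.154 in the other groups, and this ratio was not tested. Its libraries ran from 5.58 to 6.06 after S100A9, from 5.09 to 5.43 in control and from 4.63 to 5.75 after S100A8.

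S100A6 was at 197, 191 and 205 CPM in control, 217, 189 and 204 CPM after S100A8, 218, 193 and 206 CPM after S100A9, and 212, 211 and 198 CPM after S100A8/S100A9. Control and treated libraries overlapped in each comparison. Its log2 differences were 0.04 (-0.06 to 0.15), 0.06 (-0.05 to 0.16) and 0.07 (-0.04 to 0.17), which after S100A9 is an interval from -3.14% to 11.9%. S100A16, a widely expressed member of the family, was at 130, 138 and 139 CPM in control, 125, 133 and 129 CPM after S100A8, 133, 136 and 134 CPM after S100A9, and 140, 132 and 137 CPM after S100A8/S100A9. Its differences were -0.07 (-0.16 to 0.02), -0.01 (-0.10 to 0.08) and 0.01 (-0.08 to 0.10), and it varied least of the 8 genes.

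S100A13 came nearest to a difference from control. It was at 37.5, 39.5 and 37.7 CPM in control, 41.3, 39.2 and 43.0 CPM after S100A8, 41.7, 43.0 and 41.2 CPM after S100A9, and 40.6, 41.7 and 39.3 CPM after S100A8/S100A9. All 3 libraries with S100A9 lay above all 3 controls, while each of the other treated groups had 1 library under the highest control. In the order S100A8, S100A9 and S100A8/S100A9, its log2 differences were 0.11 (-0.01 to 0.23), 0.14 (0.02 to 0.26) and 0.08 (-0.03 to 0.20). After S100A9 the unadjusted p was 0.027 and the adjusted p 0.78 in edgeR, and leaving out each library in turn gave log2 differences of 0.12 to 0.16. Groups that did not overlap were seen for 2 of the 8 genes in this comparison (S100A13 and S100A14), against 12% of all genes tested. After S100A8 and after S100A8/S100A9 they were seen for 0 of 8, against 8.54% and 10.7% of all genes. The partners of S100A13 in export, FGF1 and IL1A, were among the genes tested and are counted with the partner list.

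S100A2 was at 16.5, 13.6 and 17.2 CPM in control, 14.3, 16.2 and 18.2 CPM after S100A8, 17.0, 16.9 and 16 CPM after S100A9, and 13.3, 14.7 and 15.0 CPM after S100A8/S100A9. The controls overlapped each treated group. The differences from control were 0.04 (-0.17 to 0.25), 0.08 (-0.13 to 0.28) and -0.14 (-0.35 to 0.07). The length implied by the deposited values of S100A2 ran from 839 to 954 bases over libraries, so its FPKM and CPM could move apart by up to 1.14-fold, whereas for S100A6, S100A10 and S100A11 the implied length was the same in all libraries to within 1 base.

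The 2 genes of lowest level rested on few counts. S100A4 had 29, 14 and 18 counts in control, 14, 16 and 28 after S100A8, 28, 32 and 33 after S100A9, and 28, 21 and 40 after S100A8/S100A9. In CPM, the control libraries were at 1.69, 0.878 and 1.02 and the S100A9 libraries at 1.64, 1.65 and 1.81, so that 1 control library lay within the S100A9 range. The log2 differences from control were -0.08 (-0.77 to 0.62), 0.50 (-0.15 to 1.14; adjusted p = 0.9 in edgeR) and 0.39 (-0.26 to 1.04). Without control replicate 1 the difference after S100A9 was 0.83, and without control replicate 2 it was 0.33. With each library left out in turn, it ranged from -0.43 to 0.26 after S100A8 and from 0.13 to 0.73 after S100A8/S100A9. S100A4 is also a fibroblast marker. The summed level of the 4 fibroblast markers was 10.0 to 10.3 CPM in control and 7.38 to 9.65 CPM in the treated groups, and its part in the S100A4 values was not tested.

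S100A14, a gene of epithelial cells with an altered calcium-binding loop, had 10, 14 and 6 counts in control, 14, 15 and 14 after S100A8, 18, 20 and 17 after S100A9, and 13, 9 and 2 after S100A8/S100A9. These counts are 0.600 ± 0.269 CPM (SD, n = 3) in control, 0.845 ± 0.0302 after S100A8, 1.01 ± 0.0636 after S100A9 and 0.425 ± 0.281 after S100A8/S100A9. All 3 S100A9 libraries were above all 3 controls, the S100A8 libraries overlapped the controls, and the S100A8/S100A9 group held the lowest library of the 12. The log2 differences from control were 0.51 (-0.38 to 1.40), 0.75 (-0.10 to 1.61; adjusted p = 0.86 in edgeR) and -0.47 (-1.46 to 0.51). Without control replicate 2 the differences after S100A8 and S100A9 were 0.87 and 1.11, and without control replicate 3 they were 0.22 and 0.46. A test of any difference over the 4 groups gave an unadjusted p of 0.042 and an adjusted p of 0.82 in edgeR for S100A14, the smallest of the 8. In that test 0 of 8 genes were called, against 0.222% of all genes, and 1 had an unadjusted p under 0.05, against 5.91%.

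**Figure D4:**
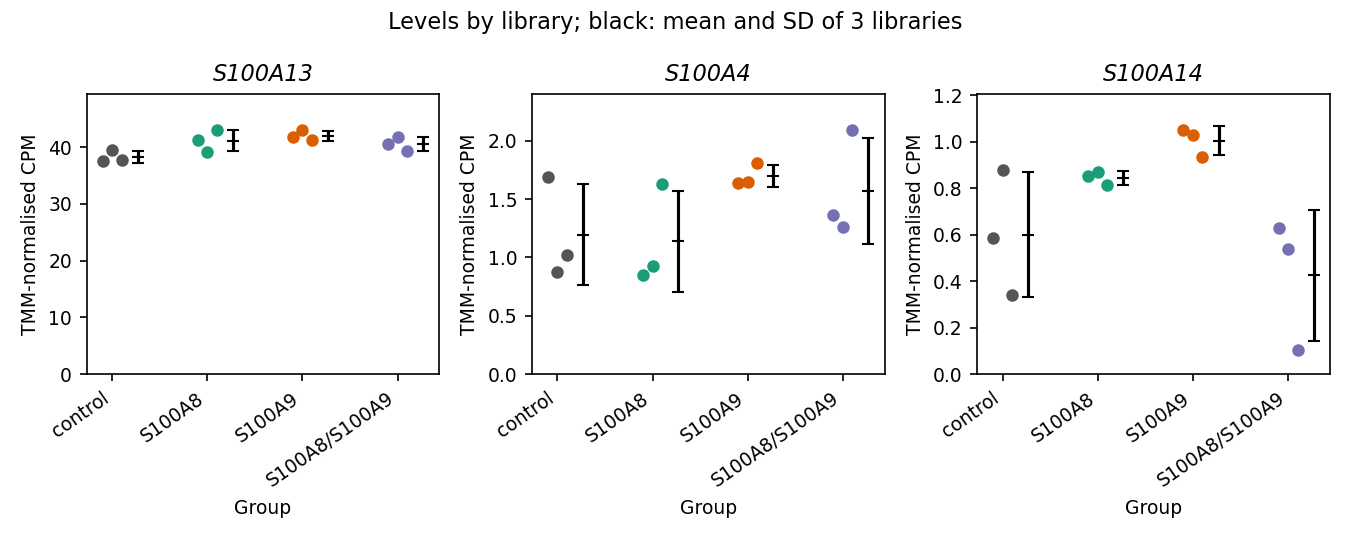
TMM-normalised CPM by library for S100A13, S100A4 and S100A14 (points by group), with the mean and SD of 3 libraries in black and axes starting at 0. S100A13 lies at 37.5 to 43.0 CPM with the controls at the low end, and S100A14 is highest after S100A9 (0.933 to 1.05 CPM) and lowest in 1 S100A8/S100A9 library (0.105 CPM).

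The treated groups were also compared with each other. Between S100A9 and S100A8, 0 of 8 S100 genes were called in edgeR, against 0.185% of all genes, and 0 had an unadjusted p under 0.05, against 7% of all genes. Groups did not overlap for S100A4 and S100A14, 2 of 8 against 12.5% of all genes, and both were higher after S100A9. Their log2 differences were 0.57 (-0.08 to 1.23) and 0.25 (-0.56 to 1.05). For S100A11 the difference was 0.10 (adjusted p = 0.71 in edgeR), with overlapping groups. Between S100A8/S100A9 and S100A9, 0 of 8 genes were called in edgeR, against 0.252% of all genes, and 2 had an unadjusted p under 0.05, against 7.15% of all genes. These were S100A14, with a log2 difference of -1.23 (-2.12 to -0.34; unadjusted p = 0.0087, adjusted p = 0.54 in edgeR), and S100A2, with -0.22 (-0.43 to -0.01; unadjusted p = 0.038, adjusted p = 0.68 in edgeR). For both genes all 3 S100A8/S100A9 libraries lay below all 3 S100A9 libraries, which was the case in either direction for 12.5% of all genes tested. Between S100A8/S100A9 and S100A8, 0 of 8 were called in edgeR, against 0% of all genes, and 1 had an unadjusted p under 0.05, against 4.43% of all genes. This was S100A14 (-0.98, -1.91 to -0.05, adjusted p = 0.98 in edgeR). It was the 1 gene of 8 whose groups did not overlap, against 9% of all genes.

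Without replicate 3 of S100A8/S100A9, which had 2 counts of S100A14, the difference of S100A14 was -0.77 from S100A9 (adjusted p = 0.83 in edgeR), -0.52 from S100A8 and -0.01 from control. Over the 6 fits that left out 1 library each, it ranged from -1.67 to -0.77 against S100A9. That of S100A2 ranged from -0.26 to -0.17. The median log2 difference of the 8 genes was 0.05 for S100A9 against S100A8, -0.07 for S100A8/S100A9 against S100A9 and -0.00 for S100A8/S100A9 against S100A8, beside 0.00 for all genes in each.

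The spread between libraries was small for the genes of high level and wide for those of low level. The within-group SD of log2 CPM was 0.04 for S100A16, 0.05 for S100A10 and S100A13, 0.07 for S100A11 and 0.08 for S100A6, under the median of 0.09 over all genes tested. It was 0.13 for S100A2, 0.38 for S100A4 and 0.56 for S100A14. Over the 12 libraries the coefficient of variation of CPM was 3.38% for S100A16 and 3.57% for S100A10, where counting alone at their mean count gives 2.05% and 1.95%. For S100A4 and S100A14 it was 29.4% and 40%, where counting alone gives 20% and 28.1%, so for these genes counting error is a large part of the spread. The map of deviations by library shows the same contrast, with S100A4 and S100A14 reaching far from their means in single libraries of several groups.

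**Figure D5:**
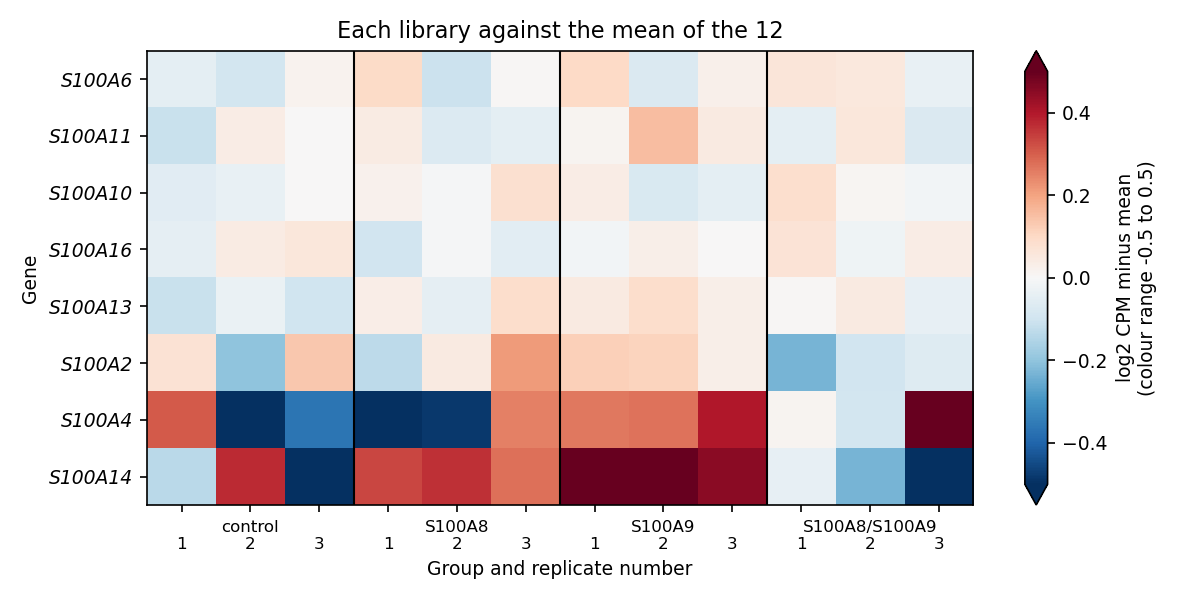
Deviation of each library (columns, by group and replicate number) from the gene's mean log2 CPM over the 12 libraries, by gene (rows), with the colour range capped at -0.5 and 0.5. The upper rows are pale, while S100A14 is above its mean in all S100A8 and S100A9 libraries and S100A4 is above it in all S100A9 libraries.

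Some pairs of S100 genes moved alike from library to library and others did not. Across the 12 libraries, S100A6 and S100A10 had a Pearson r of 0.59 in log2 CPM, and 0.65 once each group was centred on its mean. S100A11 and S100A13 had 0.59 and 0.62, and S100A2 and S100A4 0.36 and 0.64. S100A4 and S100A11 had -0.14 and -0.65. These values describe 12 libraries of 1 cell line in which both genes of a pair share the library and its depth, and no test was made.

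The genes with at least 10 CPM numbered 9912, S100A6 among them. Leaving out S100A6 itself, those whose pattern over the 12 libraries was most like it were RPS19BP1 (r = 0.91), MLLT1 (0.91) and U2AF1 (0.90). Those most like S100A14 were MOAP1 (0.89), BBS4 (0.88) and MRPS23 (0.86). They are the highest of 9912 values over 12 libraries and are given as a description.

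The rest of the S100 family was mostly silent or low. Of its 21 genes, 6 were at 0 in all libraries (S100A7A, S100A7L2, S100A8, S100A9, S100A12 and S100Z), and S100A7, S100B and S100G had 1 count each. S100P had 7 counts in 6 libraries. Outside the 10 genes, S100A3 stood at 7.76 FPKM, S100A1 at 4.27 FPKM and S100A5 at 1.04 FPKM, which places S100A3 and S100A1 between S100A2 and S100A4. S100A1, best known from heart muscle, differed from control by -0.02, -0.06 and -0.26 on the log2 scale after S100A8, S100A9 and S100A8/S100A9, and S100A3 by 0.13, 0.24 and 0.10, with all 6 intervals spanning 0. In the family as a whole, 11 genes were tested and edgeR, DESeq2 and limma each called 0 in every comparison. At an unadjusted p under 0.05 edgeR gave 0, 1 and 0 against control, where 3.53%, 5.85% and 5.6% of all genes passed. Between treatments it gave 0, 2 and 1, where 7%, 7.15% and 4.43% of all genes passed. Of 7 fused-type S100 genes, which encode large structural proteins of the skin barrier such as filaggrin (FLG), only FLG had enough counts to be tested. The same 3 tools called it in 0 comparisons. It had an unadjusted p under 0.05 in edgeR in 1 of 6, S100A9 against S100A8, where 7% of all genes did.

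Genes for proteins that S100 proteins bind inside the cell ranged from abundant to barely expressed, with MYH9 at 1842 CPM, FGF1 at 3.07 CPM and IL1A at 0.929 CPM, and none was called. All 17 were tested, and edgeR, DESeq2 and limma called 0 in each comparison. In edgeR 0, 0 and 2 (S100PBP and IL1A) had an unadjusted p under 0.05 after S100A8, S100A9 and S100A8/S100A9, and 0, 1 and 1 (IL1A) did between treatments. Over all genes these shares were 3.53%, 5.85% and 5.6% against control, and 7%, 7.15% and 4.43% for S100A9 against S100A8, S100A8/S100A9 against S100A9 and S100A8/S100A9 against S100A8. Their median log2 differences from control were -0.01, -0.00 and 0.02. The 3 of highest CPM were MYH9, the non-muscle myosin heavy chain bound by S100A4 (1842 CPM, 248 FPKM), AHNAK, a large scaffold bound by the S100A10 and annexin A2 complex (1589 CPM, 87.8 FPKM), and ANXA2 (832 CPM, 578 FPKM). After S100A9 their differences were -0.00 (-0.07 to 0.07), -0.01 (-0.08 to 0.07) and 0.03 (-0.04 to 0.09).

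Of 9 genes named as receptors for extracellular S100 proteins, 8 were tested, and 0 were called by edgeR, DESeq2 or limma in any comparison. At an unadjusted p under 0.05 edgeR gave 0 in each comparison with control, where 3.53%, 5.85% and 5.6% of all genes passed. Between treatments it gave 1, MCAM in S100A9 against S100A8, where 7% of all genes passed. Medians from control were -0.05, 0.01 and 0.02. ALCAM, BSG and MCAM, cell surface proteins of the immunoglobulin superfamily, were highest at 756, 438 and 184 CPM. Of 28 other EF-hand genes, all were tested and 0 were called by edgeR, DESeq2 or limma, with medians from control of 0.01, 0.02 and 0.00. In edgeR 0, 2 and 1 had an unadjusted p under 0.05 against control, where 3.53%, 5.85% and 5.6% of all genes did, and 3, 1 and 1 between treatments, where 7%, 7.15% and 4.43% did. The highest were CALU and RCN1, calcium-binding proteins of the secretory pathway, at 687 and 467 CPM, and CAPN2, the large subunit of a calcium-dependent protease, at 423 CPM. CAPN2 had the smallest adjusted p of any of these lists after S100A9, at 0.46 in edgeR, with a log2 difference of -0.12 (-0.20 to -0.04).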

How the data were processed

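Poly(A) RNA of 12 HK-2 libraries (4 groups of 3) was sequenced on an Illumina instrument, per the labels. The authors deposited 1 table with an expected count and an FPKM value per gene and library, per the file headers: 12% of the expected counts were not whole, which marks them as estimates. The FPKM values are the authors' deposited scaling by length and depth, and the counts with the FPKM imply lengths that differ by library for some genes. Which aligner, counting tool and annotation were used is not given in the sources used here. Gene IDs are human Ensembl IDs, while the builds listed by the submitters' processing notes are GRCm38 and mm10. IDs were named by a table of gene names (20228 of 20286) or GENCODE 29 (50), with 8 unnamed. Expected counts were rounded and fitted with edgeR 4.0.16 in R 4.3.3: TMM scaling, filterByExpr (minimum count 10; 13512 genes left), a robust quasi-likelihood model over all 12 libraries with 1 coefficient per group (8 residual degrees of freedom), two-sided tests, Benjamini-Hochberg adjustment over all genes tested and a threshold of 0.05. The common biological coefficient of variation was 4.65%. CPM values are TMM-normalised; floors use raw library totals. Alternatives were DESeq2 1.42.0, limma 3.58.1 on log2(FPKM + 1), other scaling, filters and designs, and leaving out each library. The scripts were tested on simulated data. Shared transcript runs were searched with BLAST+ 2.17.0, and permutation used Python 3.11.15. The genes and lists were chosen with earlier results of these data known. Named genes are the 10, other S100 genes of at least 1 CPM, list members past the threshold or otherwise the 3 of highest CPM, the 3 genes most correlated with the member of highest FPKM and with the one of smallest p over the 4 groups, and SOD2 and LCN2. S100A5 and the silent family genes, the genes of unadjusted p under 0.05, ANXA1, FGF1, CACYBP, TLR4 and AGER were named in addition, after their values were seen. Replicate numbers of different groups were checked for pairing and not treated as pairs. The result of 1 list of marker genes is not reported here.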

Additional observations from a re-analysis of the deposited data

How the results depend on the processing

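All 95 counts of S100 genes past the threshold, under 19 alternative settings, were 0, also with each library left out in turn; the smallest adjusted p of any of the 8 genes was 0.29. It came with the replicate number as a block (S100A8/S100A9 against S100A9), where again 0 S100 genes passed. Libraries were not treated as paired, since not every same-number pair correlated over 0.1: the 18 pairs ran from -0.07 to 0.15, 2 over 0.1. Still, 22 of 36 best matches shared the number, where 12 would by chance, a hint from the data that the numbers may mark something shared. Over all genes that block raised the calls for S100A9 against control from 20 to 42, against S100A8 from 25 to 69, for S100A8/S100A9 against S100A9 from 34 to 71 and over the 4 groups from 30 to 72, whereas limma on log2(FPKM + 1) gave 12, 10, 13 and 10. For S100A8 against control and S100A8/S100A9 against control the block gave 2 each against 1 and 0. Leaving out single libraries gave 11 to 22, 14 to 24, 14 to 31 and 13 to 33 calls over all genes in these 4 tests. Of 432 log2 differences under alternatives, 430 moved by less than 1 SD. The other 2 were S100A14 with limma on log2(FPKM + 1), at -0.49 and -0.38 against -1.23 and -0.98 for S100A8/S100A9 against S100A9 and S100A8; the added 1 shrinks differences of genes this low. Counts per kilobase of annotated exons changed the place of 2 genes, S100A6 and S100A11, by the lengths used. Depth limits S100A4 and S100A14, of 2 to 40 counts per library. A move of less than 1 SD could still change the sign. The S100A4 difference after S100A8 was -0.08 in the main fit and ran from -0.43 to 0.26 with single libraries left out.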

Other observations

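The ratio of the highest genes had the same extreme replicates in each group. The FPKM ratio of S100A6 to S100A11 in replicates 1, 2 and 3 was 1.26, 1.10 and 1.22 in control, 1.25, 1.17 and 1.25 after S100A8, 1.28, 1.03 and 1.19 after S100A9, and 1.30, 1.20 and 1.24 after S100A8/S100A9. Replicate 1 was highest and replicate 2 lowest in 4 of 4 groups before rounding, a pattern seen after the values were known and not tested. The ratio of S100A10 to ANXA2 was highest in replicate 1 in 3 of 4 groups and lowest in replicate 2 in 3 of 4. The pattern did not hold for every ratio. That of S100A11 to ANXA1 was highest in replicate 1 in 1 group and lowest in replicate 1 in 2. That of S100A6 to CACYBP was highest in replicate 1 in 2 groups and highest in replicate 2 in 2. The deposited FPKM can part from the counts: for CACYBP, which encodes the S100A6-binding ubiquitin ligase adaptor, the mean was 162 FPKM in control and 139 FPKM after S100A9, while its count-based log2 difference was 0.07 (95% interval -0.00 to 0.15). The length implied by its counts and FPKM ran from 1127 to 1902 bases over the 12 libraries, a 1.69-fold range. For S100A14 that length ran from 1034 to 1219 bases and for S100A13 from 591 to 597.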
